A study of Mus musculus with 23 samples.

Results

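The genes described here are products of the secretory cells of the small intestine, measured in the ileum of mice given pregnenolone 16α-carbonitrile (PCN), a synthetic steroid and rodent ligand of the pregnane X receptor (PXR). They are 10 genes of the 17574 gene symbols with a probe in the deposited table. Lyz1, Mmp7, Ang4 and Itln1 represent Paneth cells, and Muc2, Tff3, Fcgbp, Agr2, Zg16 and Spdef represent goblet cells. Members were found as all array probes carrying one of these gene names, 14 probes in total, with 2 probes each for Mmp7, Itln1, Muc2 and Fcgbp and 1 for each of the other 6 genes. A gene was counted by its brightest probe, that is, the probe with the highest mean over the 23 arrays.

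All mice were male and were acclimatised for 2 weeks. Wild-type (WT) C57BL/6J mice were purchased at 6 weeks of age. Pxr-/- mice (deletion of the gene Nr1i2), backcrossed on the C57BL/6J background, came from an in-house colony bred for 10 years. Genotype and breeding origin therefore cannot be told apart in these data. Mice received PCN by intraperitoneal injection at 100 mg/kg in corn oil, once daily over 4 days, or corn oil alone (CONT), and were killed at zeitgeber time 6, 6 h after the last dose. One array was made per mouse, giving 6 WT CONT, 5 WT PCN, 6 Pxr-/- CONT and 6 Pxr-/- PCN arrays, and the labels place them in 2 wash batches.

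Paneth cells sit at the base of the crypts and release lysozyme, α-defensins and other antimicrobial proteins into the lumen. Goblet cells are scattered over crypt and villus and secrete mucus, a gel of the mucin MUC2 together with small peptides and lectins. Both cell types arise from crypt stem cells through the secretory lineage, under transcription factors such as ATOH1, and SPDEF acts later in their maturation. PXR is a nuclear receptor known for its control of genes that metabolise foreign compounds.

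The signal of each gene was read from a 60-base probe, and the middle 30 bases (probe bases 16 to 45) are shown for the probes on which the results below rest. They are given 5′ to 3′ as designed. Fcgbp and Muc2 are each shown with a brighter and a dimmer probe because the probes of one gene gave different calls, and Agr2, Ang4 and Mmp7 are shown as the members with the largest differences or the widest spread.
Fcgbp, brighter probe: gggaccaaaccaacgacgcatatggttctc
Fcgbp, dimmer probe: tgagaatttggaacccaggtgttttgctct
Muc2, brighter probe: ttctgttccattctttgctttccgataata
Muc2, dimmer probe: cttgcccaagctcacagatcttcatgtaca
Agr2: ggcagaagcactgtggacttgcagattaca
Ang4: attcctccaactctggctcagaatgaaagg
Mmp7, brighter probe: atccctctgagggtcatcttgacggaatga

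In the array annotation (build mm9), the Fcgbp probes lie at chr7:28905517-28905576 (brighter) and chr7:28873024-28873083 (dimmer), and the Muc2 probes at chr7:148940536-148940595 (brighter) and chr7:148883009-148883068 (dimmer), all on the plus strand. In both genes the brighter probe is the one further along the direction of transcription. The Agr2 probe lies at chr12:36730506-36730565 and the brighter Mmp7 probe at chr9:7699476-7699535, both on the plus strand, and the Ang4 probe at chr14:52384066-52384125 on the minus strand. The place of the probes relative to exons and untranslated regions was not analysed here. All 14 probes were well above background on 23 of 23 arrays and saturated on 0 of 23, so no member value is a bound. Of the other genes given below with a value, S100a8 was well above background on 22 of 23 arrays, and of the B cell markers summed below, Fcer2a on 17.

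Over the series, arrays had median spot signals of 74 to 106.5 (linear scale) over a local background of 19 to 28.5, and no array had more than 2 saturated spots. The probe for Nr1i2, the deleted gene, had a mean log2 signal of 12.14 ± 0.16 (SD, n = 6) in WT CONT and of 11.73 ± 0.36 (SD, n = 6) in Pxr-/- CONT. After PCN the means were 12.17 ± 0.30 (SD, n = 5) and 11.71 ± 0.18 (SD, n = 6). Its difference between Pxr-/- and WT CONT was -0.41 on the log2 scale with a standard error (SE) of 0.15 and an adjusted p of 0.334. The probe thus had a modestly lower mean in Pxr-/- mice that did not pass the adjusted p, and the arrays of the genotypes overlapped. Whether it lies in the deleted part of the gene was not analysed here.

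Goblet cell genes had lower signal after PCN in both genotypes, and those that passed the test did so in Pxr-/- mice. In the plot of log2 signal by group, all 6 goblet genes lay lower on average after PCN than after corn oil in either genotype, while the Paneth genes Mmp7, Ang4 and Itln1 scattered widely within groups. A change was called at a limma p adjusted over all probes of at most 0.05 together with a fold above 1.5. By this rule Fcgbp and Agr2 fell in Pxr-/- mice, 2 of 10 members, where 0.223% of the 37161 probes of the table were called lower. No member was called in WT mice, where 0.0915% of probes were called lower.

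**Figure D1:**
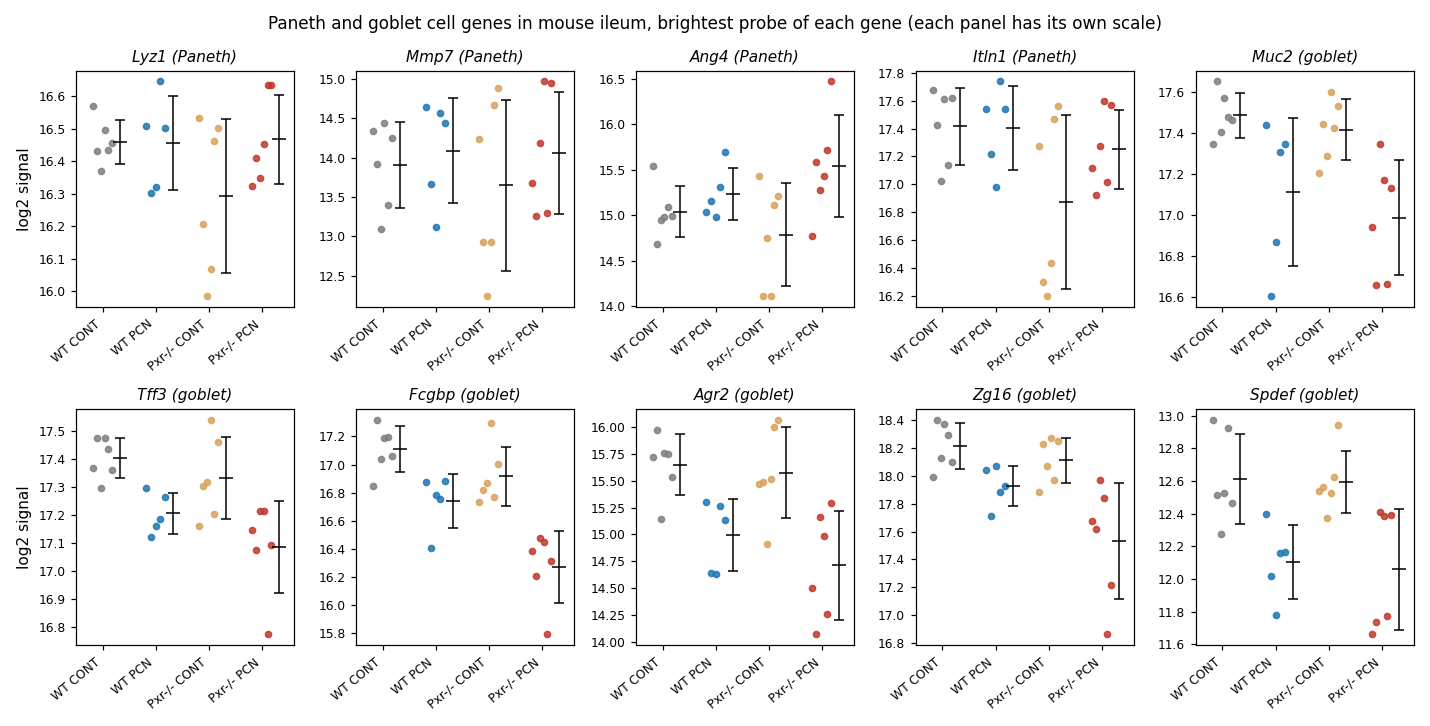
Log2 signal (y axis, a separate scale in each panel) of the brightest probe of the 4 Paneth genes and 6 goblet genes in WT CONT, WT PCN, Pxr-/- CONT and Pxr-/- PCN (x axis). Each point is 1 array, and the black mark and bars to the right of the points are the mean ± SD over 5 or 6 arrays. For Fcgbp, all 6 Pxr-/- PCN arrays lie below all 6 Pxr-/- CONT arrays, and the mean of every goblet gene is lower after PCN in both genotypes.

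Fcgbp encodes a large protein that binds the Fc part of IgG and is built into intestinal mucus. In Pxr-/- CONT its log2 signal ran from 16.74 through a median of 16.84 to 17.30, and in Pxr-/- PCN from 15.79 through 16.35 to 16.48. The lowest control array therefore lay above the highest PCN array, a separation downwards that 1.24% of all probes showed in this comparison. The difference was -0.64 (SE 0.12, 1.56-fold lower, adjusted p = 0.00491), and all 6 PCN arrays were below the control mean. In WT CONT Fcgbp ran from 16.85 through 17.12 to 17.32, and the 5 WT PCN arrays read 16.88, 16.41, 16.78, 16.76 and 16.88. These groups overlapped, with all 5 PCN arrays below the control mean and a difference of -0.37 (SE 0.12, adjusted p = 0.184).

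The 2 Fcgbp probes did not give the same size of change in Pxr-/- mice. The dimmer probe ran from 13.17 through 13.43 to 13.72 in Pxr-/- CONT and from 13.13 through 13.22 to 13.41 in Pxr-/- PCN, with a difference of -0.21 (SE 0.10, adjusted p = 0.255). In WT mice the same probe differed by -0.32 (SE 0.11, adjusted p = 0.19), close to the brighter probe. The fall of Fcgbp in Pxr-/- mice thus rested on the brighter probe, and its call was also lost without Pxr-/- CONT replicate 4 (-0.56, adjusted p = 0.0115) or Pxr-/- PCN replicate 5 (-0.54, adjusted p = 0.012), where the fold was no longer above 1.5.

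Agr2 encodes a protein disulfide isomerase of the endoplasmic reticulum that takes part in the folding of MUC2. Its log2 signal in Pxr-/- CONT ran from 14.91 through 15.51 to 16.07, and in Pxr-/- PCN from 14.07 through 14.74 to 15.30. The groups overlapped in range, although all 6 PCN arrays were below the control mean. The difference was -0.86 (SE 0.22, 1.82-fold lower, adjusted p = 0.0286). In WT CONT Agr2 ran from 15.15 through 15.74 to 15.98, and the 5 WT PCN arrays read 15.30, 14.64, 14.63, 15.27 and 15.13. The WT difference was -0.65 (SE 0.23, 95% confidence interval -1.13 to -0.18, adjusted p = 0.202), with all 5 PCN arrays below the control mean. The Agr2 call in Pxr-/- mice was lost when Pxr-/- CONT replicate 5 or 6 or Pxr-/- PCN replicate 1, 2 or 5 was left out, with adjusted p between 0.0692 and 0.0825.

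Muc2 encodes the gel-forming mucin of the intestine. With its brighter probe, Muc2 ran from 17.21 through 17.44 to 17.60 in Pxr-/- CONT and from 16.66 through 17.04 to 17.34 in Pxr-/- PCN. The difference was -0.43 (SE 0.13, adjusted p = 0.0722). The dimmer probe ran from 11.53 through 11.77 to 12.30 in Pxr-/- CONT and from 11.03 through 11.14 to 11.50 in Pxr-/- PCN, so all PCN arrays lay below all control arrays. With this probe Muc2 was called (-0.62, SE 0.14, 1.54-fold lower, adjusted p = 0.0176).

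In WT mice the dimmer Muc2 probe also separated the groups, with control values from 11.66 through 11.77 to 12.04 and PCN values of 11.66, 10.99, 10.87, 11.66 and 11.60. The highest PCN array was just below the lowest control array, and 1.27% of all probes were separated downwards in this comparison. The difference was -0.47 (SE 0.15, adjusted p = 0.146). With the brighter probe the WT control values ran from 17.34 through 17.47 to 17.65 and the PCN values were 17.44, 16.60, 16.87, 17.31 and 17.34. The difference with the brighter probe was -0.37 (SE 0.14, adjusted p = 0.255). Replicates 2 and 3 were the low arrays for both Muc2 probes and for Agr2 and Spdef, and the same 2 arrays had a log2 summed level of 8 B cell markers of 13.72 and 13.85, where the other WT PCN arrays had 11.16 to 11.35 and the WT CONT arrays 10.82 to 11.27. Without both arrays, a setting added after the values had been seen, the WT difference was -0.13 (SE 0.13, adjusted p = 0.77) for the brighter and -0.18 (SE 0.13, adjusted p = 0.653) for the dimmer Muc2 probe. It was -0.41 (SE 0.26, adjusted p = 0.579) for Agr2 and -0.37 (SE 0.19, adjusted p = 0.464) for Spdef.

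Zg16 encodes a lectin of the mucus layer that binds Gram-positive bacteria. It ran from 17.88 through 18.15 to 18.27 in Pxr-/- CONT and from 16.86 through 17.65 to 17.97 in Pxr-/- PCN. Replicates 5 and 6 were the low arrays after PCN. The difference of -0.58 (SE 0.14, adjusted p = 0.0239) passed the adjusted p, and its fold of 1.49 was just short of the threshold. Together with Fcgbp and Agr2, 3 of 10 members passed the adjusted p with a lower signal, beside 1.6% of all probes. Spdef, the transcription factor of goblet cell maturation, ran from 12.37 through 12.55 to 12.94 in Pxr-/- CONT and from 11.66 through 12.08 to 12.41 in Pxr-/- PCN. Its PCN arrays fell into 3 low and 3 high values, and the difference was -0.53 (SE 0.15, adjusted p = 0.0524). Tff3, a trefoil peptide of mucosal repair, had the smallest difference of the goblet genes, -0.24 (SE 0.08, adjusted p = 0.0752), with values from 17.16 through 17.31 to 17.54 in Pxr-/- CONT and from 16.78 through 17.12 to 17.22 in Pxr-/- PCN.

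In WT mice, Spdef controls ran from 12.28 through 12.52 to 12.97, and the 5 PCN arrays read 12.40, 12.02, 11.78, 12.16 and 12.16. The difference was -0.51 (SE 0.16, adjusted p = 0.145), nearly the value in Pxr-/- mice. Zg16 differed by -0.29 (SE 0.15, adjusted p = 0.464) and Tff3 by -0.20 (SE 0.08, adjusted p = 0.307) in WT mice. For each of the 6 goblet genes, all 5 WT PCN arrays and all 6 Pxr-/- PCN arrays were below the mean of their own controls. The share of all probes with this pattern was not counted. The 6 genes were read on the same arrays and varied together, so they are not 6 separate observations. In ileal tissue as a whole, fewer goblet cells and less RNA per goblet cell cannot be told apart.

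As a group, 6 of 6 goblet genes were lower in WT PCN, where 54.9% of all probes were lower, with a median difference of -0.37 against -0.01 over all probes. In Pxr-/- mice 6 of 6 were lower, against 53% of all probes, with a median of -0.56 against -0.01. An unadjusted p under 0.05 was reached by 5 of 6 goblet genes in WT mice and by 6 of 6 in Pxr-/- mice, beside 5.99% and 10.7% of all probes with a lower signal. Without the 2 WT PCN arrays of high B cell marker level, 6 of 6 goblet genes were still lower in WT PCN, with a median of -0.27, but 0 of 6 reached an unadjusted p under 0.05. The plot of PCN effects by probe shows the full differences with their intervals.

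**Figure D2:**
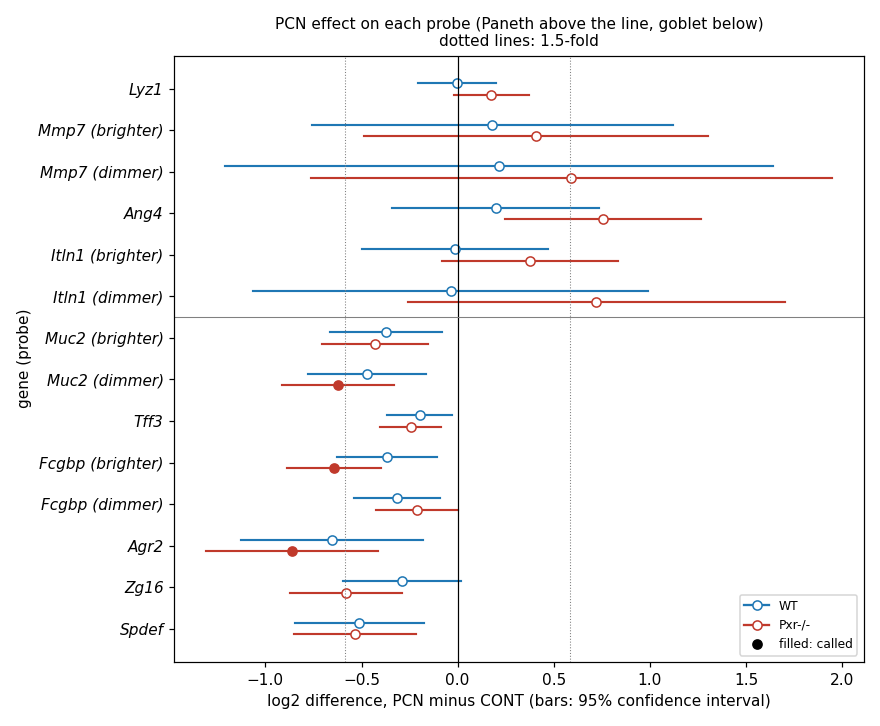
Log2 difference between PCN and CONT (x axis) for each of the 14 probes (y axis) in WT (blue) and Pxr-/- mice (red), with 95% confidence intervals as bars and filled points for called probes. Dotted lines mark 1.5-fold. All 8 goblet probes lie left of 0 in both genotypes, and the 3 filled points are the dimmer Muc2 probe, the brighter Fcgbp probe and Agr2 in Pxr-/- mice.

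The difference between the PCN effects of the 2 genotypes was tested directly as an interaction. No member was called, where 0.078% of all probes were, and 0 of 10 members reached an unadjusted p under 0.05, beside 4.52% of all probes. The adjusted p was 1 for every member. Among goblet genes, by their brightest probes, the interaction ranged from -0.29 (SE 0.20) for Zg16 to -0.02 (SE 0.22) for Spdef. For Fcgbp it was -0.28 (SE 0.17) with the brighter and 0.10 (SE 0.15) with the dimmer probe, so its sign depended on the probe. The 95% confidence intervals were -0.71 to 0.13 for Zg16, -0.63 to 0.08 for Fcgbp and -0.86 to 0.44 for Agr2, so differences between the genotypes of a size like that of the PCN effects themselves lay within them.

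Over both genotypes, in a contrast added after the values had been seen, the averaged PCN effect passed an adjusted p of 0.05 for 6 of 6 goblet genes. Of all probes, 4.59% passed it with a lower signal. The averaged differences were -0.76 for Agr2 (SE 0.16, 1.69-fold lower, adjusted p = 0.0042), -0.52 for Spdef (SE 0.11, adjusted p = 0.00503) and -0.51 for Fcgbp (SE 0.09, adjusted p = 0.000817). They were -0.43 for Zg16 (SE 0.10, adjusted p = 0.01), -0.40 for Muc2 (SE 0.10, adjusted p = 0.012) and -0.22 for Tff3 (SE 0.06, adjusted p = 0.0159). Without the same 2 WT PCN arrays 5 of 6 passed, and Tff3 was at an adjusted p of 0.0536. Only Agr2 also passed the fold threshold, 1 of 10 members beside 0.196% of all probes called lower. This contrast uses the same arrays as the comparisons within each genotype and is no separate evidence.

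Paneth cell genes did not share this direction. None of the 4 was called after PCN in either genotype, beside 0.692% of all probes called in either direction in WT and 0.947% in Pxr-/- mice, and their median difference was 0.09 in WT and 0.39 in Pxr-/- mice. Ang4, an angiogenin-family ribonuclease with antimicrobial activity, had the largest difference. Its log2 signal ran from 14.11 through 14.93 to 15.43 in Pxr-/- CONT and from 14.77 through 15.51 to 16.47 in Pxr-/- PCN. The groups overlapped, and the difference of 0.76 (SE 0.25, 95% confidence interval 0.25 to 1.27) had an adjusted p of 0.0855. It was 1.39 within wash batch 1 but 0.12 within wash batch 2, so its size depended on the batch. The lowest controls, Pxr-/- CONT replicates 2 and 4 at 14.11 each, were both in batch 1. In WT mice the difference was 0.20 (SE 0.26, adjusted p = 0.842), with control values from 14.68 through 14.99 to 15.54 and PCN values of 15.04, 15.16, 14.98, 15.31 and 15.70.

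Mmp7 encodes matrilysin, the protease that activates the α-defensin precursors of mouse Paneth cells. Its brighter probe ran from 12.24 through 13.58 to 14.89 in Pxr-/- CONT and from 13.25 through 13.93 to 14.97 in Pxr-/- PCN, a difference of 0.41 with an SE of 0.43 (adjusted p = 0.646). In WT CONT it ran from 13.10 through 14.09 to 14.44, and the PCN arrays read 14.64, 13.67, 13.11, 14.56 and 14.44. The values of one group thus covered most of the range of another, and the WT difference was 0.18 (SE 0.45, adjusted p = 0.936). WT PCN replicates 2 and 3, with the high B cell marker level, were the low arrays for Mmp7, Itln1 and Lyz1 too, and without them the WT difference of Mmp7 was 0.66 (SE 0.51, adjusted p = 0.676). Itln1, a lectin that binds microbial glycans, differed by -0.01 (SE 0.23, adjusted p = 0.992) in WT and by 0.38 (SE 0.22, adjusted p = 0.356) in Pxr-/- mice. Its dimmer probe differed by -0.04 (SE 0.50, adjusted p = 0.99) and 0.72 (SE 0.47, adjusted p = 0.417). The dimmer Mmp7 probe differed by 0.21 (SE 0.69, adjusted p = 0.954) and 0.59 (SE 0.65, adjusted p = 0.661), so the size of these differences depended on the probe. Lyz1, the lysozyme of Paneth cells, differed by 0.00 (SE 0.10, adjusted p = 0.996) and 0.17 (SE 0.09, adjusted p = 0.312).

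Mmp7, Itln1 and Ang4 varied more within every group than most probes did. In WT CONT, WT PCN and Pxr-/- PCN, the SD of Mmp7 lay at the 98.4th to 99.1st percentile of all probes. Those of Ang4 lay at the 88th to 97.8th there and those of Itln1 at the 86.6th to 91.8th. In Pxr-/- CONT the SD of Mmp7 was 1.09, at the 99.7th percentile of all probes, and those of Itln1 (0.63) and Ang4 (0.57) were at the 98.8th and 98.4th percentiles, against a median SD of 0.16. By the brightest probes, wide spread was not a trait of all Paneth genes or of Paneth genes alone. Lyz1 was at the 80th percentile in Pxr-/- CONT and at the 6.68th in WT CONT. The goblet gene Agr2 was at the 96.3rd and 92.3rd. Lyz1 was read by 1 bright probe only, and whether its narrower spread comes from the probe was not tested. In Pxr-/- CONT the dimmer probes of Mmp7 and Itln1 had SDs of 1.59 and 1.29, wider than the brighter ones. The low arrays in that group were replicates 2, 3 and 4, which read 12.93, 12.24 and 12.93 for Mmp7, 16.30, 16.20 and 16.44 for Itln1 and 16.21, 15.98 and 16.07 for Lyz1. The other arrays of the group read 14.23 to 14.89, 17.28 to 17.56 and 16.46 to 16.53. Among goblet genes, Muc2 read 17.45, 17.29 and 17.60 in these replicates against 17.21, 17.42 and 17.53 in the others. Agr2 read 15.49, 14.91 and 15.52 against 15.47 to 16.07, so its lowest array was replicate 3, as for Mmp7.

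Between the controls of the 2 genotypes no member was called, where 0.148% of all probes were, and 1 of 10 had an unadjusted p under 0.05, beside 9.03% of all probes. This was Itln1, which had the largest difference, -0.54 (SE 0.22, adjusted p = 0.442), and its dimmer probe differed by -0.95 (SE 0.47, adjusted p = 0.582). The 4 Paneth genes had a median difference of -0.26 and the 6 goblet genes one of -0.07, against 0.00 over all probes. Between the PCN groups no member was called either, where 0.366% of all probes were, and 2 of 10 (Fcgbp and Zg16) had an unadjusted p under 0.05, beside 7.05% of all probes. Fcgbp had the largest difference (-0.47, SE 0.12, adjusted p = 0.111), which was -0.03 (SE 0.11, adjusted p = 1) with its dimmer probe. These genotype comparisons use the same arrays as the PCN comparisons.

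Across the 23 arrays, the members of each cell type varied together. All 15 pairs of goblet genes had a positive Pearson correlation, from 0.57 to 0.93 with a median of 0.78, and all 15 passed an adjusted p of 0.05 over the 45 pairs tested by both Pearson and Spearman permutation tests (100000 permutations, 2-sided). Tff3 and Fcgbp had the highest r of 0.93 (rho 0.92, permutation p = 1e-05 for both, the smallest these permutations can give, adjusted p = 5e-05), which was 0.89 without the 2 arrays farthest from the median of Tff3. Within wash batches 1 and 2 this r was 0.88 (n = 11) and 0.96 (n = 12). With the group and batch means removed, the median r of the goblet pairs was 0.57, from 0.20 for Zg16 and Spdef to 0.90 for Tff3 and Fcgbp. The permutation tests pooled the 4 groups, so differences between groups that the genes share enter their p.

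The 6 pairs of Paneth genes had a median r of 0.74, from 0.54 to 0.91, and 5 of them passed both tests. Mmp7 and Itln1 had the highest r of 0.91 (rho 0.87, permutation p = 1e-05 for both, adjusted p = 5e-05), 0.88 without the 2 arrays farthest from the median of Mmp7, and 0.89 (n = 11) and 0.94 (n = 12) within the wash batches. With group and batch means removed it was 0.97. The 24 pairs of a goblet with a Paneth gene had a median r of -0.05, from -0.67 to 0.41. With group and batch means removed, their median was 0.13, from -0.55 to 0.83, and Agr2 then had an r of 0.83 with Mmp7 and of 0.74 with Itln1, against 0.41 and 0.33 before. The 3 of them that passed both tests all joined Ang4 to a goblet gene with a negative r, among them Zg16 at -0.67 (rho -0.70, permutation p = 0.00068 and 0.00043, adjusted p = 0.0017 and 0.00114). That r was -0.57 without the 2 arrays farthest from the median of Ang4 and -0.55 with group and batch means removed, and within wash batches 1 and 2 it was -0.91 (n = 11) and -0.56 (n = 12). Spdef, with group and batch means removed, had an r of 0.67 with Mmp7 and of 0.57 with Itln1. By the same measure Agr2 and Spdef had 0.28 and 0.20 with Zg16, 0.44 and 0.26 with Fcgbp, and 0.76 and 0.57 with Muc2. The split by cell type was thus not clean for these 2 goblet genes.

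**Figure D3:**
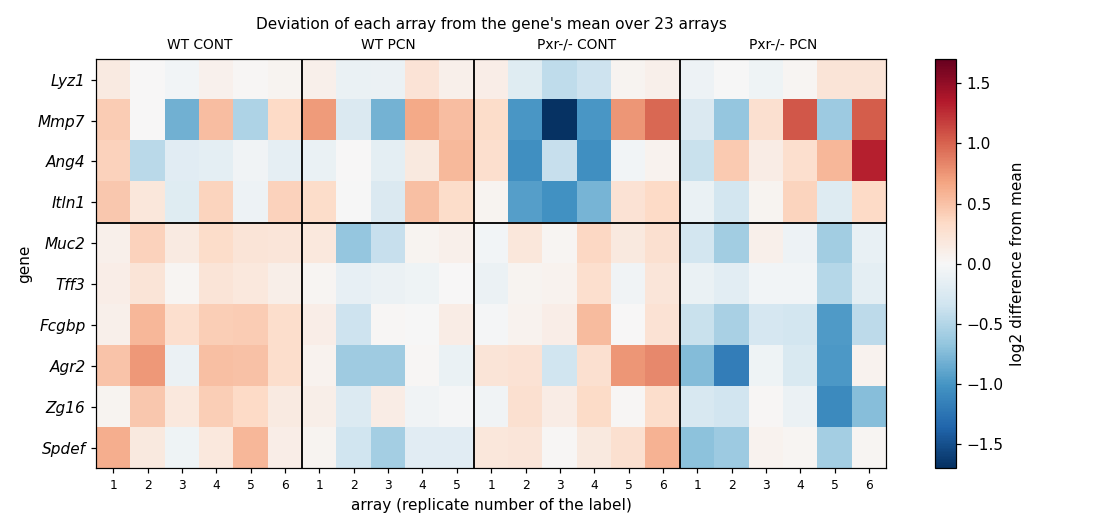
Deviation of each array (x axis, by group and replicate number) from the mean of the gene over 23 arrays (colour, log2 scale) for the 10 genes (y axis, Paneth above and goblet below the line). Mmp7 spans -1.68 to 1.05 with low arrays in every group, and the deepest lie in Pxr-/- CONT replicates 2, 3 and 4. The low values of goblet genes gather in the PCN groups, with Pxr-/- PCN replicate 5 the lowest array for Zg16 at -1.08.

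The genes whose pattern over the 23 arrays was most like that of Mmp7 were Mptx1 (r = 0.96), 1700010I14Rik (0.96), Mptx2 (0.95), Tmed6 (0.95) and AA543401 (0.94), given here as a description. Mptx1 and Mptx2 encode mucosal pentraxins. The genes most like Muc2 were Klk1b22 (r = 0.91), Klk1b3, Sytl2, Fermt1 and Klk1 (each 0.90). Klk1, Klk1b3 and Klk1b22 are closely related kallikrein genes, and their probes may share signal, which was not separated. Lyz2, the near copy of Lyz1 expressed by macrophages, had a brighter probe with the same low arrays in Pxr-/- CONT as Lyz1, namely 15.34, 14.67 and 14.96 in replicates 2, 3 and 4 against 16.14 to 16.33 in the others. Signal from Lyz1 and Lyz2 transcripts on each other's probes was not separated.

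The 250 bases upstream of the annotated start are shown for Muc2, Fcgbp and Agr2, the goblet genes with a called probe, from RefSeq on build GRCm38.p6, 5′ to 3′ along the gene. Of the 10 members, 8 had an entry, and Tff3 and Zg16 did not. Capitals mark matches, on either strand, to the E-box letters CAGCTG and CAGATG, which basic helix-loop-helix factors such as ATOH1 can bind, and to the TATA-box letters TATAAA.
Muc2, chr7:141690090-141690339, plus strand: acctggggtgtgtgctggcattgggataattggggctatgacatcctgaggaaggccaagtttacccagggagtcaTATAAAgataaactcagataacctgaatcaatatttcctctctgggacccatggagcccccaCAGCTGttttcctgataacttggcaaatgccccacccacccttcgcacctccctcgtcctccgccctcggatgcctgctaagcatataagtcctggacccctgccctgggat
Fcgbp, chr7:28070986-28071235, plus strand: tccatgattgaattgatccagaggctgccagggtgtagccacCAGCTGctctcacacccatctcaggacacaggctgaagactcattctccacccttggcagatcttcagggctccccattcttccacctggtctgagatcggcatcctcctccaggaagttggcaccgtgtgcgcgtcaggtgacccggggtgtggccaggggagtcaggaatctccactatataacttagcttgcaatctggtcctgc
Agr2, chr12:35992675-35992924, plus strand: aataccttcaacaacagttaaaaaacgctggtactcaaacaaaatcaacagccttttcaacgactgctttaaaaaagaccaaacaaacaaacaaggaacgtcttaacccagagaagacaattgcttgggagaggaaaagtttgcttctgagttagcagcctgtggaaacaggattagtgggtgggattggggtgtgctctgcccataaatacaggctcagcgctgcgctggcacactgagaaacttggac

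In this stretch Muc2 held CAGCTG once, from -112 to -107 relative to the start, and TATAAA once, from -174 to -169. Fcgbp held CAGCTG once, from -208 to -203, and Agr2 held none of the 3 motifs. Over the 9 upstream stretches of the 8 members, of which Mmp7 has 2, CAGCTG was present in 2, CAGATG in 1 (Ang4) and TATAAA in 2 (Muc2 and Mmp7). Of the 32851 stretches of the same length in the table, 13% held CAGCTG, 14.4% CAGATG and 12.4% TATAAA. A match is a description of the letters, and binding was not measured.

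Other goblet cell genes followed the members in part. Of 37 further goblet genes in the table, 30 were lower in WT PCN and 24 in Pxr-/- PCN, with median differences of -0.18 and -0.15 against -0.01 over all probes in both comparisons. In Pxr-/- mice Muc13, a membrane-bound mucin, was the only one of the 37 called (-0.59, SE 0.13, 1.51-fold lower, adjusted p = 0.0142), beside 0.223% of all probes called lower. Its difference in WT was -0.25 (SE 0.14, adjusted p = 0.5). Clca1, a metalloprotease of goblet cell mucus, differed by -0.27 (SE 0.11, adjusted p = 0.302) in WT and -0.26 (SE 0.10, adjusted p = 0.168) in Pxr-/- mice. Mlph, which links granules to a myosin motor, passed the adjusted p in WT without the fold (-0.52, adjusted p = 0.0278), and Scin, an actin-severing protein, did so with a higher signal in Pxr-/- mice (0.57, adjusted p = 0.00331). Without Pxr-/- CONT replicate 3 or 6, or Pxr-/- PCN replicate 1 or 5, no further goblet gene was called in Pxr-/- mice.

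B3gnt6 went against this direction. It encodes the glycosyltransferase that makes the core 3 structure of mucin-type glycans. Its mean log2 signal was 8.85 in WT CONT and 9.84 in WT PCN, a rise of 1.00 (SE 0.13, 1.99-fold, adjusted p = 0.000146), and 8.56 in Pxr-/- CONT and 8.83 in Pxr-/- PCN, a difference of 0.28 (SE 0.13, adjusted p = 0.227). The PCN groups of the 2 genotypes differed by -1.01 (SE 0.13, adjusted p = 0.000104), while the interaction was -0.72 (SE 0.18) with an adjusted p of 0.282. Retnlb, a resistin-like protein of goblet cells, had the largest difference of the list in Pxr-/- mice, 1.57, with an SE of 0.77 and an adjusted p of 0.265. Its interval reached from -0.03 to 3.18.

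None of 20 further Paneth genes was called in any of the 5 comparisons, where 0.078% to 0.947% of all probes were, so 0 of 20 lies near that share. In Pxr-/- mice 17 of the 20 were higher after PCN, with a median difference of 0.25 and a range from -0.22 to 1.54, where 53% of all probes were lower. In WT 10 were higher and 10 lower with a median of 0.00. Between the controls, 18 of the 20 were lower in Pxr-/- than in WT mice, with a median of -0.26. Between the PCN groups 11 were lower and 9 higher, with a median of -0.02. The 20 genes were read on the same arrays, so they are not 20 separate observations. Signal shared between probes of related α-defensins was not separated. The counts after PCN in Pxr-/- mice and between the controls both rest on the same Pxr-/- CONT arrays. Defa24, an α-defensin, differed by 0.03 (SE 0.05, adjusted p = 0.903) in WT and by 0.07 (SE 0.05, adjusted p = 0.466) in Pxr-/- mice. Sox9, a factor needed for Paneth cell formation, differed by -0.21 (SE 0.14, adjusted p = 0.63) and 0.06 (SE 0.14, adjusted p = 0.86). Dll4, a Notch ligand, passed the adjusted p in WT without the fold (-0.45, adjusted p = 0.022), and it is named because it was the only one of the list to do so.

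Of 11 regulators of the secretory lineage, 9 were lower after PCN in each genotype, with a median difference of -0.17 in WT and -0.18 in Pxr-/- mice. Of all probes, 54.9% and 53% were lower. The genes of this list, like those of the other lists, were read on the same arrays and are not separate observations. None of the 11 was called, beside 0.692% of all probes in WT and 0.947% in Pxr-/- mice, so 0 of 11 lies near that share. Atoh1, which commits cells to the secretory lineage, differed by -0.33 (SE 0.21, adjusted p = 0.603) in WT and -0.31 (SE 0.20, adjusted p = 0.424) in Pxr-/- mice. Gfi1, which acts below Atoh1, differed by -0.33 (SE 0.16, adjusted p = 0.446) and -0.33 (SE 0.16, adjusted p = 0.247). The plot of both PCN effects shows the members beside these lists.

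**Figure D4:**
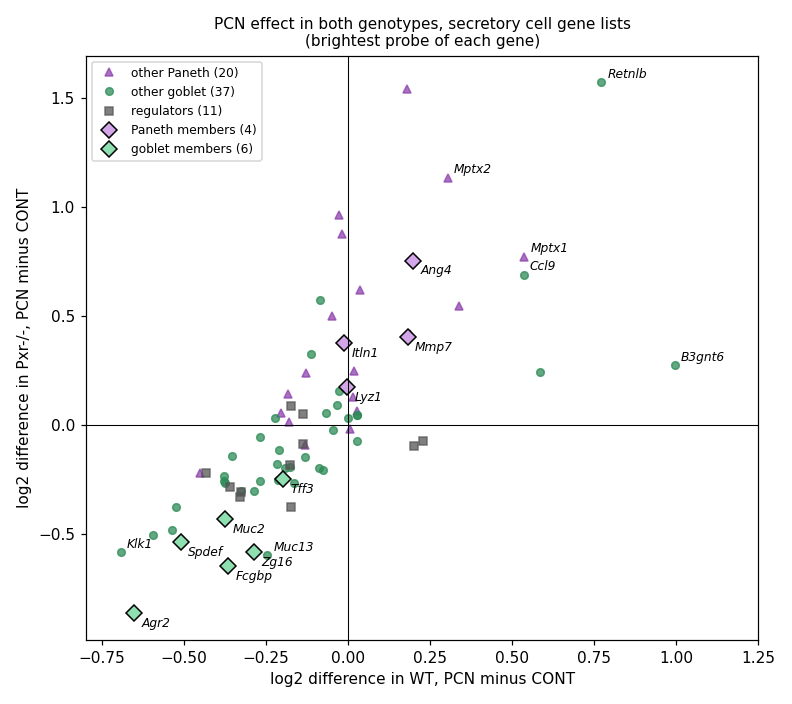
Log2 difference between PCN and CONT in WT (x axis) and in Pxr-/- mice (y axis), 1 point per gene by its brightest probe, for the members (diamonds), 20 other Paneth genes, 37 other goblet genes and 11 regulators. The 6 goblet members lie in the lower left, from Agr2 at -0.65 and -0.86 to Tff3 at -0.20 and -0.24, and B3gnt6 lies to the right at 1.00 and 0.28.

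Markers of other cells moved with PCN as well. Of 9 macrophage and neutrophil genes, 7 were higher after PCN in WT and 8 in Pxr-/- mice, with median differences of 0.35 and 0.41. In WT 2 were called higher, beside 0.692% of all probes called in either direction. In Pxr-/- mice 3 were called higher, beside 0.947% of all probes. Among them, S100a8 rose by 1.63 (adjusted p = 0.0398) in WT and by 2.56 (adjusted p = 0.00091) in Pxr-/- mice, and S100a9 by 2.16 (adjusted p = 0.0162) and 2.90 (adjusted p = 0.00108). Ly6g differed by -0.26 and -0.23 without being called. The log2 of the summed signal of these 9 genes had group medians of 16.44, 16.29, 15.97 and 16.33 in WT CONT, WT PCN, Pxr-/- CONT and Pxr-/- PCN, and arrays from 15.06 to 16.76. The brighter Lyz2 probe alone had medians of 16.27, 16.06, 15.74 and 16.05. This sum therefore mostly reflects that probe, whose signal was not separated from that of Lyz1. The dimmer Lyz2 probe differed after PCN by 0.47 (SE 0.21, adjusted p = 0.391) in WT and by 0.48 (SE 0.20, adjusted p = 0.191) in Pxr-/- mice. The 6 smooth muscle genes had medians of 17.41, 17.76, 17.50 and 17.89, and arrays from 17.23 to 18.32. In Pxr-/- mice 1 of them was called higher (Cnn1, 0.66, adjusted p = 0.0154), beside 0.947% of all probes called in either direction. In each genotype 5 of the 6 were higher after PCN and 1 was lower (-0.46 in WT and -0.36 in Pxr-/- mice). The 8 B cell genes had medians of 11.05, 11.35, 11.13 and 11.44, with no gene called. In WT mice 8 of 8 B cell genes were higher after PCN, 7 of them at an unadjusted p under 0.05, with a median difference of 1.42, and in Pxr-/- mice 7 of 8, 1 of them at that level, with a median of 0.45. The WT PCN replicates 2 and 3 had the highest summed levels of all arrays, followed by Pxr-/- PCN replicate 1 at 12.35. The part of these cells in the goblet gene differences was not tested.

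The 10 markers of ileal enterocytes had summed levels between 19.73 and 20.07 on all arrays, and none was called in any comparison. None of 5 stem cell genes, 7 enteroendocrine and tuft cell genes or 4 pancreatic acinar genes was called either, with median differences after PCN of -0.14 and 0.13, 0.14 and 0.21, and 0.00 and 0.17 in WT and Pxr-/- mice. In the 5 comparisons at most 0.947% of all probes were called, so these counts of 0 lie near that share. Of 8 acinar genes listed, the other 4 were not in the deposited table.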

How the data were processed

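Ileal RNA was labelled with Cy3 by the authors and hybridised to single-colour Agilent arrays, 1 per mouse, which were read with Agilent Feature Extraction version 10.10.1.1. Per the file headers, each scanner value is an intensity, the linear brightness of 1 spot. The authors' deposited table gives 37161 probes on the log2 scale. Per the study's methods, it was made from the median signal after filtering, with wash batch correction and CrossNorm, whose grouping is not given in the sources used here. All columns of this table held 1 set of values (largest quantile difference 0, median 8.024). Across probes, their Spearman correlation with the scanner's median signal was 0.9995 to 0.9997, and each of the 23 columns matched its own scanner file best.

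The deposited log2 values were used as they stand. All 23 arrays and all probes entered 1 limma fit (limma version 3.58.1, R version 4.3.3, data.table version 1.17.8) with terms for 4 groups and for wash batch, and with 2-sided moderated tests (eBayes). It gave 5 comparisons: PCN against CONT in WT and in Pxr-/- mice, their interaction, and Pxr-/- against WT within CONT and within PCN. A contrast averaging both PCN effects was added after seeing the data. The Benjamini-Hochberg adjustment ran over all 37161 probes of a comparison. Calls needed an adjusted p no higher than 0.05 together with a fold above 1.5. The number of arrays limits the precision (median SE 0.0972 to 0.141). The fitting code was tested on simulated data.

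The members and gene lists were chosen with earlier results of these data known. Named beside the 10 members were called genes of the other Paneth, goblet and regulator lists, Atoh1, Gfi1, Sox9, Clca1, Retnlb, Defa24, Lyz2, Nr1i2, and the 5 genes most correlated with Mmp7 and with Muc2. Markers of other cells, Dll4, Mlph and Scin were named after their values were seen. The RefSeq gene table gave mouse symbols to 32994 probes by transcript accession, to 10224 by name and to 520 by an older name, and 12867 stayed without one. Alternatives covered scanner values under 4 other processings, the filter, the wash batch, the slide (8 slides, scanned on 1 day), a replicate block, centring, the fold threshold, the probes of a gene, each array left out and, added after seeing the data, the 2 WT PCN arrays with a high B cell marker level left out.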

Additional observations from a re-analysis of the deposited data

Results flagged for a closer look

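In each group the highest and lowest array of every member was compared with its nearest neighbour by Dixon's ratio, 40 member and group combinations in all, and 2 passed the 95% limit, where chance flags about 1 in 20. Tff3 in Pxr-/- PCN replicate 5 had a log2 signal of 16.78, with the next array at 17.08 (ratio 0.682, limit 0.625 for 6 arrays). Fcgbp in WT PCN replicate 2 had a log2 signal of 16.41, with the next array at 16.76 (ratio 0.731, limit 0.71 for 5 arrays).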

How the results depend on the processing

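No member was called in WT mice, in the interaction or in the genotype comparisons under any of 16 alternatives, 2 of them added later, or with any array left out. In Pxr-/- mice the count of 2 members became 0 within wash batch 1 and 0 within wash batch 2, where 6 arrays compare the groups in each batch, 4 with the slide as a fixed block (Fcgbp, Agr2, Zg16 and Spdef) and 1 with the mean of all probes of a gene (Agr2). It lay between 0 and 4 with 1 array left out. It was 0 without Pxr-/- PCN replicate 5, 1 without Pxr-/- CONT replicate 4 or 6, and 4 without Pxr-/- PCN replicate 3 or 4, where Zg16 and Spdef were called too. Within wash batches 1 and 2 the differences themselves were -0.64 and -0.65 for Fcgbp and -0.89 and -0.84 for Agr2. For the averaged PCN effect the count of 1 became 0 within either wash batch and 6 without a fold threshold, and it was 1 with each array left out. With the dimmer probe of a gene, chosen after seeing the data, Muc2 was called and Fcgbp was not. No called member value changed sign, but 23 of the 57 uncalled ones did in at least 1 setting. None of these was a PCN effect on a goblet gene, and 5 were PCN effects on a Paneth gene within 1 genotype. Within wash batch 1 Ang4 in WT was -0.02 (0.20 in all arrays), and within wash batch 2 Mmp7 in Pxr-/- was -0.07 (0.41) and the interactions of Mmp7 and Ang4 were -0.40 and -0.25 (0.22 and 0.56). Over all probes, counts of calls differed by more than 1.5 times from the main ones (257 in WT, 352 in Pxr-/-, 29 for the interaction, 55 and 136 between genotypes and 349 averaged) within the wash batches (0 to 159), without the fold threshold (84 to 3353), with the slide as a fixed block (17 for the interaction, 257 between controls), with the processed signal (647 averaged), and with 1 array left out for 3 comparisons: between controls 33 to 35 without WT CONT replicate 5 or 6 or Pxr-/- CONT replicate 1 or 2, 83 without Pxr-/- CONT replicate 4 and 113 without Pxr-/- PCN replicate 5, 232 in Pxr-/- mice without that array, and 19 for the interaction without Pxr-/- PCN replicate 3. Without both WT PCN arrays of high B cell marker level, 14 were called for the interaction, and the members called stayed at 2 in Pxr-/- mice and 1 averaged. Median centring equals the main values, since all columns share 1 median.

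A replicate block with the labels' numbers left 2 members called in Pxr-/- mice, 0 in WT and 1 in the averaged effect. The numbers did not pair the samples: 33 same-numbered pairs had a median correlation of deviations of -0.032, with 6 over 0.1.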
